A study of Homo sapiens with 6 samples.

Results

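The 8 genes described here are CEMIP, the hyaluronan synthases HAS1, HAS2 and HAS3, the hyaluronidases HYAL1, HYAL2 and HYAL3, and the hyaluronan receptor CD44, taken by gene name from the 58735 genes of the count table. CEMIP was chosen by its own log2 fold change, a strong rise in these same libraries, so its change is given as a description without a test. The other 7 genes were added for their function. They and the gene lists below were chosen with earlier results of these data known, so their tests are not independent of that choice. Of the 8 genes, 7 had at least 10 counts in at least 3 libraries and were among the 15801 genes tested, and HAS2 fell below that filter. LoVo, an established human colorectal cancer cell line (spelled LOVO in the labels), was transfected with a control siRNA (si-NC, 3 libraries) or an siRNA against the splicing factor SRSF11 (si-SRSF11, 3 libraries), and polyadenylated RNA was sequenced. The study asked which transcripts depend on SRSF11 in these cells. The study made several siRNAs against SRSF11, and the sources used here do not give which of them was sequenced or how long after transfection. The study describes its RNA samples as independent and as pairs of control and knockdown. Neither it nor the labels say that the libraries came from separate cultures. The p-values thus measure the spread between these samples, which may be technical.

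Hyaluronan is a long, unbranched sugar polymer of the extracellular matrix. The HAS enzymes build it at the plasma membrane from UDP-glucuronic acid and UDP-N-acetylglucosamine and extrude it, and cells bind it mainly through CD44, a transmembrane receptor whose alternative exons give many isoforms. It is cut by HYAL2 at the cell surface, by HYAL1 in lysosomes and, by a route that does not need these hyaluronidases, through CEMIP, a secreted and vesicle-associated protein that has been linked to invasion in colorectal cancer.

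Library totals ran from 14369525 to 16685719 counts, at which 3 counts correspond to 0.184 to 0.207 CPM (counts scaled by library total and TMM factor). SRSF11 (ENSG00000116754) was read first as a check of the labels: it had 1271, 1281 and 1363 counts in the si-NC libraries and 789, 789 and 807 counts in the si-SRSF11 libraries, a log2 fold change of -0.81 (SE 0.0541, adjusted p = 6.1e-10, edgeR's quasi-likelihood test). At an adjusted p under 0.05, 2081 genes (13.2% of those tested) had a higher level in si-SRSF11 and 1805 (11.4%) a lower one, a split that turned to 1585 higher and 2289 lower when libraries were scaled by their totals alone. Among 14 stromal and blood markers, DCN, LUM and PTPRC, which mark fibroblasts and blood cells, had 0 counts in each library. Of the list, 9 had under 10 counts in each library. Others were detected in each library, among them COL1A1 with a mean of 12.7 CPM in si-NC and 11.7 CPM in si-SRSF11. CD14 had 2.96 and 3.77 CPM, and neither gene passed the test (adjusted p = 0.47 and 0.22). The summed level of the list was 24.4 to 28.1 CPM in si-NC and 29.9 to 34.7 CPM in si-SRSF11. PDGFRB, a growth factor receptor of stromal cells, was the only one of the 5 tested markers of that list to pass the test, from 114 to 148 counts in si-NC to 221 to 246 counts in si-SRSF11 (log2 fold change 0.70, adjusted p = 2.3e-04), and its part in the results below was not tested. The 10 epithelial markers were each tested and summed to 5800 to 6170 CPM in si-NC and 5890 to 6280 CPM in si-SRSF11. KRT8 alone had a mean of 3140 CPM in si-NC and 3300 CPM in si-SRSF11. KRT20 (0.701 and 0.815 CPM) and GPA33 (0.902 and 1.04 CPM) were almost silent in both conditions. Of the 10, the intestinal transcription factors CDX1 (log2 fold change 0.31, adjusted p = 0.0012) and CDX2 (0.40, adjusted p = 3.8e-04) rose.

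In outline, CEMIP had the highest mean level per length of the 8 genes, although it overlapped HYAL2 in si-NC. Its level was 1.87 times as high in si-SRSF11, and HYAL1 rose less. CD44 was almost silent in LoVo cells and higher in each si-SRSF11 library without passing the test over all genes. HYAL2, HYAL3, HAS1 and HAS3 did not pass the test, and HAS2 was at or near 0. The promoters of the 3 genes whose si-SRSF11 libraries all lay above the si-NC libraries are printed here, because these are the windows in which such genes start. Each is the RefSeq window (build GRCh38.p14) from 250 bases before to 50 bases after an annotated start, 5′ to 3′ on the gene's strand, and capitals mark a TATA box (TATAAA) or a GC box (GGGCGG) found on either strand.
CEMIP: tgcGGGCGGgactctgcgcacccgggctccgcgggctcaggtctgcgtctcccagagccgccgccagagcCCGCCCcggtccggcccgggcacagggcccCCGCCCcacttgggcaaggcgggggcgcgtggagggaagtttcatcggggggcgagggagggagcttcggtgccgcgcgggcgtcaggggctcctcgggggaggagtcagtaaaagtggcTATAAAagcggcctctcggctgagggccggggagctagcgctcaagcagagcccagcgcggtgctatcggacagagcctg
HYAL1: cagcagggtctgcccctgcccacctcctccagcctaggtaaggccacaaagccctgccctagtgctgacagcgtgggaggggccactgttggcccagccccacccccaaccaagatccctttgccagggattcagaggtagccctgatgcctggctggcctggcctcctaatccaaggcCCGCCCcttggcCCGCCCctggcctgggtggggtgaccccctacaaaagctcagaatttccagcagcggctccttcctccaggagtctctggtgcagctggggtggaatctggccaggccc
CD44: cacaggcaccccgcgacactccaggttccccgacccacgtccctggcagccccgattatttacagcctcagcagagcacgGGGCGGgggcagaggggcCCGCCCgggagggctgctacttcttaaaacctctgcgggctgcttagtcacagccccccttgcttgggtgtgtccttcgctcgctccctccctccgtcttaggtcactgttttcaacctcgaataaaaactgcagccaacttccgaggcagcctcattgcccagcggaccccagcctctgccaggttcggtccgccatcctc
The CEMIP window lies at chr15:80779120-80779419 on the plus strand and holds 73.0% G and C, beside a median of 58.7% over all promoters. It holds a TATA box at base 221 and GC boxes at bases 4, 71 and 101, counted from 1 at the window's 5′ end. The HYAL1 window (chr3:50303525-50303824, minus strand, inside the span annotated for the gene, 65.7% G and C) holds GC boxes at bases 180 and 192, and the CD44 window (chr11:35138921-35139220, plus strand, also inside the annotated span, 63.3% G and C) holds them at bases 81 and 99. Of 35116 promoter windows of the same length, 11.5% hold a TATA box and 45.0% a GC box, and the marked letters do not overlap each other. The AP-1 site TGANTCA, found in 7.71% of those windows, was in none of the windows matched by symbol to 7 of the members, with HAS2 not searched. A match of letters is a description of the sequence and shows no binding.

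CEMIP (ENSG00000103888, chromosome 15, 80779343 to 80951776, plus strand) was covered by 1842, 1872 and 1860 counts in si-NC libraries 1, 2 and 3 and 3826, 3741 and 3512 counts in si-SRSF11 libraries 1, 2 and 3. In CPM these were 127, 123 and 119 against 245, 230 and 215. Each si-SRSF11 library lay far above each si-NC library, and the spread within either condition was small beside the gap between them. The mean went from 123 ± 3.81 CPM (SD, n = 3) to 230 ± 14.6 CPM (SD, n = 3), a fold of 1.87 (95% interval 1.73 to 2.01) or a log2 fold change of 0.90 (SE 0.0523). Under 13 other choices of scaling, test, filter and libraries, the log2 fold change was 0.85 to 0.94.

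By log2 fold change CEMIP ranked 169 of the 15801 tested genes and 116 of 12770 protein-coding ones. Among the 1640 genes whose si-NC mean was at least that of CEMIP it ranked 2, behind MTATP6P1. MTATP6P1, a pseudogene of a mitochondrial gene named here after its value was seen, had 317 CPM in si-NC and a log2 fold change of 0.93. CEMIP was chosen by its own log2 fold change, and the set of 1640 is cut at its own level, so these ranks only describe it. The plot of all tested genes shows CEMIP at the upper edge of the genes of its level. The gene counts come from 6 annotated transcripts, and 2.94% of its exon bases are shared with genes of the opposite strand, MESD and AC027808.1. MESD, a chaperone of receptors of the LDL receptor family, had a mean of 40.0 ± 0.547 CPM in the si-NC libraries and 43.6 ± 3.71 CPM in the si-SRSF11 libraries (SD, n = 3 each), far below CEMIP. No source says whether reads were assigned by strand.

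**Figure D1:**
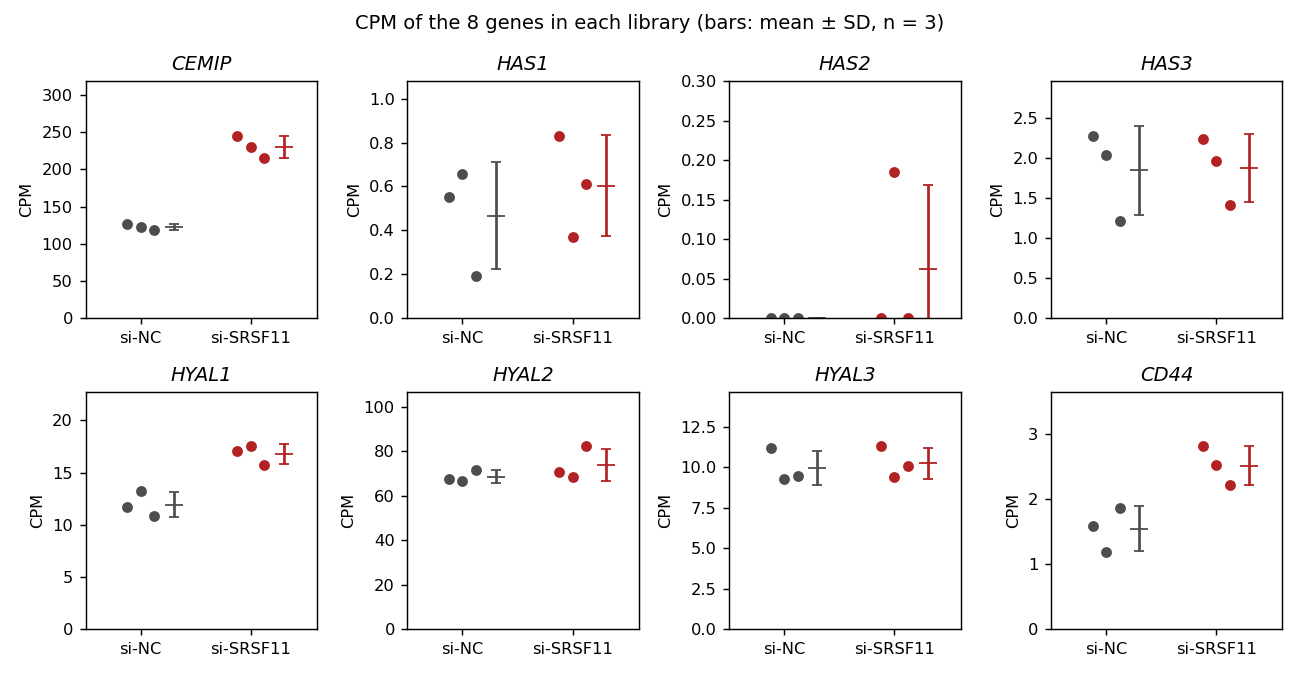
CPM (y axes from 0, a scale for each gene) of the 8 genes in each library, with points for the 3 si-NC and 3 si-SRSF11 libraries and bars for the mean ± SD. The si-SRSF11 points lie above all si-NC points for CEMIP (215 to 245 against 119 to 127), HYAL1 (15.7 to 17.5 against 10.8 to 13.2) and CD44 (2.21 to 2.81 against 1.18 to 1.86) and overlap or touch for the other 5 genes.

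The protein-coding genes beside CEMIP differed from it. ABHD17C, a depalmitoylase gene 23.7 kb before it, had 22.6 ± 1.51 CPM with si-NC and 22.1 ± 1.45 CPM with si-SRSF11 (SD, n = 3 each; adjusted p = 0.81). TLNRD1, an actin-bundling protein gene 49.2 kb after it, fell from 94.0 ± 5.05 to 69.0 ± 2.23 CPM (SD, n = 3 each), with a log2 fold change of -0.45 (SE 0.055, adjusted p = 3.2e-06). ARNT2, 181 kb before, and CFAP161, 55.3 kb after, had too few counts to test.

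The genes whose levels followed CEMIP most closely over the 6 libraries were found from log2 CPM centred on each gene's own mean, by the root mean square difference. These were HSP90AA1, an inducible cytosolic chaperone (difference 0.0735 on the log2 scale), NKD1, an inhibitor of Wnt signalling (0.0858), and DRAXIN, a secreted axon guidance protein (0.0863). HSP90AA1 had 223, 221 and 226 CPM in si-NC and 392, 391 and 385 CPM in si-SRSF11. NKD1 had 23.0, 19.5 and 19.6 CPM in si-NC and 41.4, 42.9 and 34.6 CPM in si-SRSF11. DRAXIN had 3.31, 3.29 and 3.15 CPM in si-NC and 7.03, 6.77 and 6.75 CPM in si-SRSF11. All 3 were picked for this likeness out of the tested protein-coding genes, over the same 6 libraries that chose CEMIP, and their levels are a description.

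**Figure D2:**
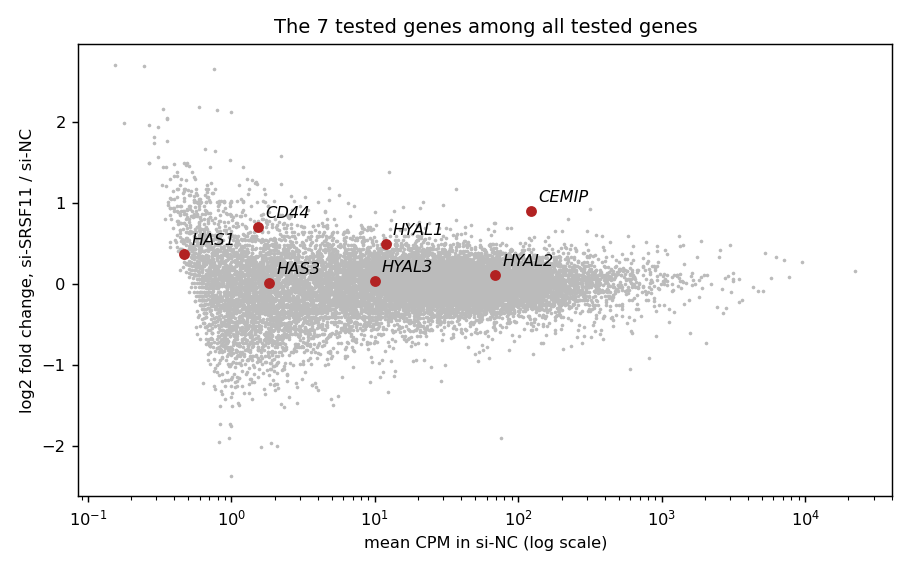
Log2 fold change (si-SRSF11 over si-NC, y axis) against the mean CPM in si-NC (x axis, log scale) for the 15801 tested genes, in grey, with the 7 tested members in red. CEMIP stands out at 123 CPM with a log2 fold change of 0.90, HYAL1 and CD44 lie above 0 at lower levels, and HYAL2, HYAL3 and HAS3 lie near 0.

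The hyaluronan synthases were scarcely expressed. HAS2 (ENSG00000170961, chromosome 8), the main synthase of many tissues, had 0 counts in each si-NC library and 0, 3 and 0 counts in the si-SRSF11 libraries. A count of 0 allows up to 3 counts, or 0.193 to 0.207 CPM in the si-NC libraries by counting error alone. A difference in HAS2 within that level was thus not detectable at this depth. HAS1 (ENSG00000105509, chromosome 19, 51713112 to 51723994, minus strand) had 8, 10 and 3 counts in si-NC and 13, 6 and 10 counts in si-SRSF11. These overlapped, and the log2 fold change of 0.37 (SE 0.51, 95% interval -0.69 to 1.43) had an adjusted p of 0.64. HAS3 (ENSG00000103044, chromosome 16, 69105564 to 69118719, plus strand) was covered by 33, 31 and 19 counts in si-NC and 35, 32 and 23 counts in si-SRSF11.

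HAS3 thus carried most of the synthase reads in each library, with 1.84 ± 0.554 CPM in the si-NC and 1.87 ± 0.422 CPM in the si-SRSF11 libraries (SD, n = 3 each). Its log2 fold change was 0.02 (SE 0.294, adjusted p = 0.96), and the interval of its fold ran from 0.667 to 1.55, so a change within that range could not be told from none. The sign of this value is not settled, since it was -0.01 with libraries scaled by their totals and ran from -0.21 to 0.20 with each library left out in turn. Summed over the 3 synthases, the level averaged 2.31 ± 0.782 CPM with si-NC and 2.54 ± 0.523 CPM with si-SRSF11 (SD, n = 3 each). HAS3 shares 6.90% of its exon bases with CHTF8, a gene of the opposite strand that fell from 149 ± 4.29 to 129 ± 2.66 CPM (SD, n = 3 each; log2 fold change -0.20, adjusted p = 0.0028), and the part of CHTF8 in the few HAS3 counts was not tested.

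The hyaluronidases lie side by side on the minus strand of chromosome 3, with 5.41 kb between HYAL1 and HYAL2. HYAL1 was the one that passed the test, and whether its change differed from those of the others was not tested. HYAL1 (ENSG00000114378, 50299889 to 50312381), the acid-active hyaluronidase of lysosomes and plasma, had 169, 200 and 168 counts in si-NC and 268, 285 and 256 counts in si-SRSF11. In CPM these were 11.7, 13.2 and 10.8 against 17.1, 17.5 and 15.7, so that the lowest si-SRSF11 library lay above the highest si-NC library. HYAL1 rose from 11.9 ± 1.2 to 16.8 ± 0.966 CPM (SD, n = 3 each), a fold of 1.41 (95% interval 1.21 to 1.65). Its log2 fold change of 0.50 (SE 0.106) had an adjusted p of 0.0013 and passed the test under each of 13 alternatives, with adjusted p from 2.5e-04 to 0.013. An exact two-sided permutation test of the 6 values gave p = 0.10, the smallest that 3 libraries against 3 allow. No exon base of HYAL1 is shared with another gene.

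HYAL2 (ENSG00000068001, 50317790 to 50322906), the lipid-anchored enzyme of the cell surface, had 979, 1013 and 1119 counts in si-NC and 1109, 1115 and 1341 counts in si-SRSF11. In CPM it stood at 67.5, 66.7 and 71.8 against 70.9, 68.6 and 82.2. The conditions overlapped, and si-SRSF11 library 3 lay apart from the rest. The means of 68.7 ± 2.78 and 73.9 ± 7.30 CPM (SD, n = 3 each) gave a log2 fold change of 0.11 (SE 0.0641, adjusted p = 0.24). The 95% interval of its fold, 0.982 to 1.18, leaves out a change as large as that of HYAL1. HYAL2 shares 11.2% of its exon bases with its neighbour TUSC2 on the same strand, which had 44.3 ± 0.887 CPM with si-NC and 44.6 ± 3.76 CPM with si-SRSF11 (SD, n = 3 each).

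HYAL3 (ENSG00000186792, 50292831 to 50299468), a member of the family with little hyaluronidase activity of its own, had 162, 141 and 148 counts in si-NC and 177, 153 and 165 counts in si-SRSF11. Its levels of 11.2, 9.28 and 9.50 CPM against 11.3, 9.41 and 10.1 CPM interleaved. The log2 fold change was 0.04 (SE 0.123, adjusted p = 0.83) with a fold interval of 0.864 to 1.23, and its sign changed when either si-NC library 2 (-0.01) or si-SRSF11 library 1 (-0.03) was left out. HYAL3 shares 14.3% of its exon bases with NAA80 and IFRD2 on the same strand, and neither of these passed the test (adjusted p = 0.51 and 0.083).

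Of all reads scaled to CPM on the 3 hyaluronidases, HYAL1 took 12.9%, 14.8% and 11.7% in the si-NC libraries and 17.2%, 18.4% and 14.5% in the si-SRSF11 libraries. The highest si-NC share lay just above the lowest si-SRSF11 share, and the means of 13.1% ± 1.54 and 16.7% ± 1.97 (SD, n = 3 each) differed with p = 0.20 in an exact two-sided permutation test. The summed level of the 3 genes averaged 90.5 ± 1.52 CPM with si-NC and 101 ± 6.41 CPM with si-SRSF11 (SD, n = 3 each), and HYAL2 made up most of it in each library.

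CD44 (ENSG00000026508, chromosome 11, 35138870 to 35232402, plus strand) was covered by 23, 18 and 29 counts in si-NC and 44, 41 and 36 counts in si-SRSF11. In CPM these were 1.59, 1.18 and 1.86 against 2.81, 2.52 and 2.21, all well above the level of 3 counts. Each si-SRSF11 library lay above each si-NC library, and the gap between the nearest ones was smaller than the range within either condition. The mean went from 1.54 ± 0.341 to 2.51 ± 0.303 CPM (SD, n = 3 each), a fold of 1.62 (95% interval 1.11 to 2.38). Its log2 fold change of 0.70 (SE 0.267) had an unadjusted p of 0.016 and an adjusted p of 0.060 in edgeR's quasi-likelihood test, and thus did not pass. Over 13 alternatives the adjusted p ran from 0.050, still not under the threshold, to 0.20, and the log2 fold change from 0.54 to 0.86.

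The CD44 counts sum 39 annotated transcripts, 26 of them protein-coding, over 21 exon blocks, so its standard and variant isoforms were not resolved. In bulk RNA, a different number of cells that express CD44 and a different amount of CD44 RNA per cell cannot be told apart. The genes nearest to CD44 in their pattern over the 6 libraries were C2orf70 (root mean square difference 0.0478 on the log2 scale), GALNT8, a glycosyltransferase gene (0.0763), and WFIKKN1, a secreted protease-inhibitor-like protein gene (0.0867). They too had low counts, for example 30, 26 and 41 counts of C2orf70 in si-NC and 60, 54 and 50 counts in si-SRSF11, and 62.7% of the GALNT8 exon bases are shared with other genes. Of the genes beside CD44, APIP, an enzyme of methionine salvage 222 kb before it, rose (log2 fold change 0.26, adjusted p = 0.018), a call that was lost without si-NC library 1 (adjusted p = 0.075), si-NC library 3 (0.080) or si-SRSF11 library 2 (0.068). PDHX, a subunit of pyruvate dehydrogenase 118 kb before it, did not pass (0.16, adjusted p = 0.11) except without si-SRSF11 library 2 (0.22, adjusted p = 0.044), and SLC1A2 and PAMR1 after it had at most a few counts.

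**Figure D3:**
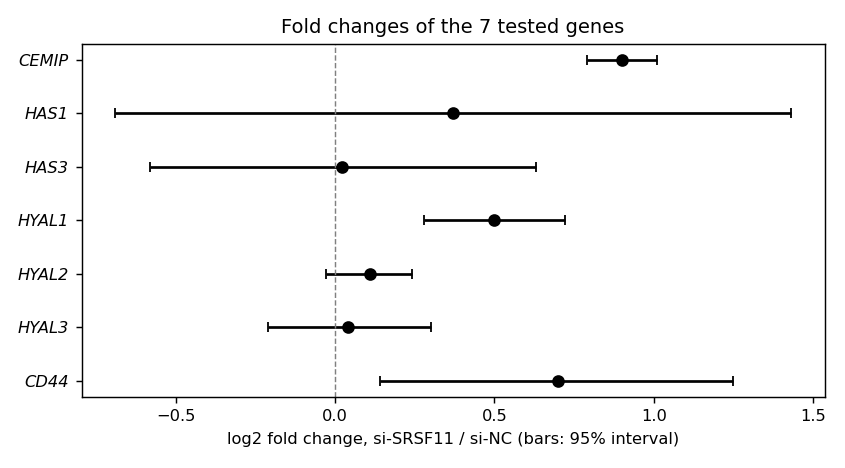
Log2 fold change of the 7 tested members (x axis, si-SRSF11 over si-NC, dashed line at 0) with the 95% interval of the edgeR fit as a bar. CEMIP, chosen by this value, is at 0.90 with the narrowest interval (0.79 to 1.01), which is shown as a description. The intervals of HYAL1 (0.28 to 0.72) and CD44 (0.14 to 1.25) lie above 0, those of the other 4 genes cross it, and HAS1 and HAS3 are the least precisely measured.

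Of the 6 tested members chosen for their function, 1 (HYAL1) was higher in si-SRSF11 at an adjusted p under 0.05, where 13.2% of all tested genes were higher. The 3 si-SRSF11 libraries lay above the 3 si-NC libraries in 3 of the 7 tested members, CEMIP included by choice, and in 2 of the 6 chosen for function, beside 19.97% of all tested genes. These shares rest on few genes, chosen with earlier results of these data known. All 7 tested members had a log2 fold change above 0 in the main fit, so a shared direction does not set HYAL1 and CD44 apart. The folds of HYAL1 and CD44, 1.41 and 1.62, were below the 1.87 of CEMIP, although the interval of CD44 includes that of CEMIP.

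Levels of different genes were compared as RPKM, which is CPM divided by gene length in kilobases. CEMIP stood at 16.2 ± 0.5 RPKM (SD, n = 3) in si-NC, above 77.4% of the 12770 tested protein-coding genes, and HYAL2 at 15.1 ± 0.611 RPKM (SD, n = 3), above 75.9%. Their si-NC libraries overlapped (15.7 to 16.7 and 14.7 to 15.8 RPKM), whereas in si-SRSF11 CEMIP, at 28.3 to 32.1 RPKM, lay clear of HYAL2, at 15.1 to 18.1 RPKM. HYAL3 (4.92 ± 0.510 RPKM, SD, n = 3) and HYAL1 (3.79 ± 0.384 RPKM, SD, n = 3) came next. HYAL3 lay above HYAL1 in each si-NC library, from 4.57 to 5.50 against 3.44 to 4.20 RPKM, and the 2 genes overlapped in si-SRSF11, at 4.64 to 5.58 and 5.01 to 5.60 RPKM.

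The remaining members formed a lower group. HAS3 had 0.349 ± 0.105 RPKM (SD, n = 3), HAS1 0.209 ± 0.109 RPKM (SD, n = 3) and CD44 0.154 ± 0.0340 RPKM (SD, n = 3) in si-NC, above 6.97%, 4.04% and 2.40% of the tested protein-coding genes. HAS1 and CD44 overlapped in both conditions. Per length, LoVo cells thus held far more RNA of the genes that cut hyaluronan than of those that make it or of CD44 in both conditions.

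**Figure D4:**
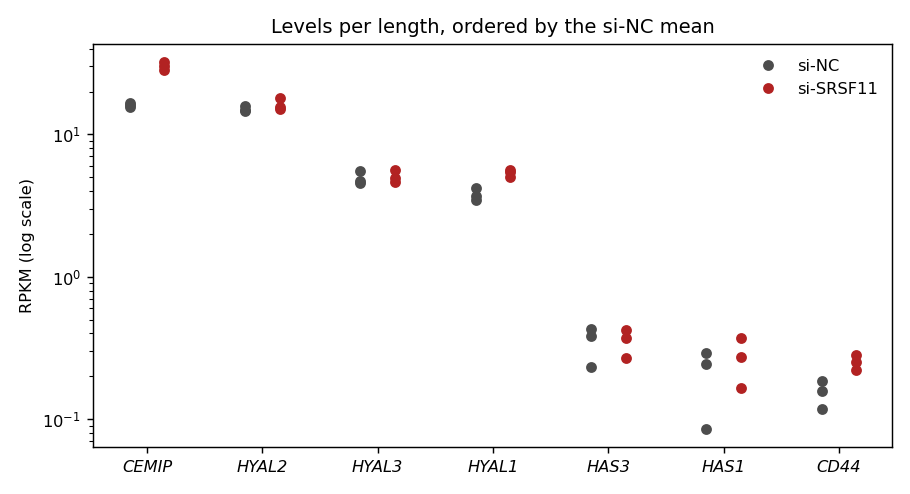
RPKM (log scale) of 7 members in each of the 6 libraries, ordered by the si-NC mean, with si-NC in grey and si-SRSF11 in red (HAS2, at 0 in 5 libraries, is left out). CEMIP and HYAL2 lead in si-NC at 16.2 and 15.1 RPKM, all si-SRSF11 points lie above all si-NC points for CEMIP, HYAL1 and CD44, and HAS3, HAS1 and CD44 lie under 0.5 RPKM.

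A list of enzymes that prepare the sugars of hyaluronan, or run against that preparation, held more genes that fell than genes that rose. Of 11 genes on this list 10 were tested, 6 fell and 1 rose at an adjusted p under 0.05, where 11.4% of all tested genes were lower and 13.2% higher, and their median log2 fold change was -0.21, beside 0.00 over all tested genes. Of the 6 falls, that of PGM3 lost its call in 7 alternatives, among them the fits without si-NC library 1 (adjusted p = 0.064), 2 (0.18) or 3 (0.071) and without si-SRSF11 library 1 (0.13) or 3 (0.059), and that of GNPNAT1 without si-NC library 3 (0.066). PGM3 and GNPNAT1, both enzymes of the hexosamine pathway, are named after their values were seen. GFPT1, the rate-limiting enzyme of the hexosamine pathway, fell from 393 ± 20.7 to 301 ± 8.69 CPM (SD, n = 3 each; log2 fold change -0.39, adjusted p = 4.7e-06). UGDH, which makes UDP-glucuronic acid, fell from 198 ± 5.62 to 171 ± 6.71 CPM (SD, n = 3 each; -0.21, adjusted p = 0.0024). AMDHD2, which runs against the pathway by deacetylating N-acetylglucosamine phosphate, fell too (-0.41, adjusted p = 7.2e-04), but 40.3% of its exon bases are shared with other genes. The gene that rose was GNPDA1, which also runs against the pathway by turning glucosamine phosphate back into fructose phosphate, from 56.8 ± 1.70 to 70.7 ± 1.98 CPM (SD, n = 3 each; 0.32, adjusted p = 2.2e-04). The summed level of the list was 860 to 909 CPM in si-NC and 759 to 766 CPM in si-SRSF11, with no overlap.

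Of the other genes of hyaluronan breakdown, CEMIP2, the membrane-bound relative of CEMIP, had 1329, 1507 and 1589 counts in si-NC and 1749, 1712 and 1608 counts in si-SRSF11. Its levels of 97.6 ± 5.35 and 105 ± 6.61 CPM (SD, n = 3 each) overlapped, and its log2 fold change of 0.11 (SE 0.0557, adjusted p = 0.17) was far below that of CEMIP; it passed the test only without si-SRSF11 library 3 (0.15, adjusted p = 0.0451). CEMIP2 is named outside the rule for named genes, as the closest relative of CEMIP. The list had 5 tested genes with a median of -0.01 on the log2 scale, and 2 of them fell, where 11.4% of all tested genes were lower. HPSE, heparanase, which cuts heparan sulfate and not hyaluronan, fell from 76.9 ± 2.62 to 53.3 ± 2.68 CPM (SD, n = 3 each; -0.53, adjusted p = 6.4e-07), and HEXA, a lysosomal hexosaminidase subunit that trims sugar ends, fell from 36.5 ± 0.757 to 24.9 ± 2.88 CPM (SD, n = 3 each; -0.55, adjusted p = 3.0e-05), with 16.3% of its exon bases shared. The hyaluronidases HYAL4 and SPAM1 had 0 counts in each library.

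Hyaluronan-binding genes other than CD44 were mostly silent. Of 25 listed, 7 were tested, 1 rose and 1 fell (13.2% and 11.4% of all tested genes), and the median of their log2 fold changes was -0.10. HABP4, an RNA-binding protein that also binds hyaluronan, rose from 22.9 ± 1.67 to 32.5 ± 3.27 CPM (SD, n = 3 each; 0.51, adjusted p = 1.6e-04), with 27.0% of its exon bases shared with other genes. BCAN, the proteoglycan brevican, fell from 17.2 ± 0.927 to 12.3 ± 1.24 CPM (SD, n = 3 each; -0.48, adjusted p = 0.0017), with 13.8% shared.

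Genes that anchor, bind or shed CD44 were listed as well, with 10 of 16 tested, 4 higher and 1 lower (13.2% and 11.4% of all tested genes), and a median of 0.16 on the log2 scale. IQGAP1, a cytoskeletal scaffold, rose from 171 ± 3.03 to 204 ± 8.98 CPM (SD, n = 3 each; 0.26, adjusted p = 4.4e-04). MMP14, a membrane protease that can cut CD44 from the cell surface, rose from 80.1 ± 1.72 to 96.0 ± 2.16 CPM (SD, n = 3 each; 0.26, adjusted p = 5.7e-04). LGALS9, galectin-9, had 4, 1 and 3 counts in si-NC and 10, 12 and 13 counts in si-SRSF11 (1.99, SE 0.562, adjusted p = 0.012), and it has near-identical copies among which reads could be split. Its call was lost without si-NC library 2 (1.61, adjusted p = 0.054), and it fell under the filter without any 1 of the si-SRSF11 libraries or at a filter of 20 counts, and DESeq2 gave it no adjusted p. ADAM17, another sheddase, was lower (-0.19, adjusted p = 0.033), and not without si-NC library 2 (-0.12, adjusted p = 0.22) or si-SRSF11 library 3 (-0.14, adjusted p = 0.11).

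The splicing factors reported to govern the variant exons of CD44 were all expressed. Of 16 tested, 8 rose and 1 fell (13.2% and 11.4% of all tested genes), their median was 0.15 on the log2 scale, and 13 had a value above 0, beside 7939 of the 15801 tested genes. SFPQ rose most clearly, from 197 ± 0.0874 to 270 ± 7.87 CPM (SD, n = 3 each; 0.45, adjusted p = 2.3e-07). The SR proteins SRSF3 (0.33, adjusted p = 1.4e-05) and SRSF10 (0.32, adjusted p = 1.9e-05) and the SR-like TRA2B (0.30, adjusted p = 5.8e-05) rose by similar amounts. HNRNPL, named after its value was seen as the only one called lower, fell from 219 ± 9.43 to 185 ± 6.18 CPM (SD, n = 3 each). Its log2 fold change was -0.24 (adjusted p = 8.8e-04). ESRP1 and ESRP2, named outside the rule, also had values below 0 and did not pass the test. ESRP1 had 5.36 ± 0.253 CPM in si-NC and 4.23 ± 0.442 CPM in si-SRSF11 (SD, n = 3 each), with a log2 fold change of -0.34 (adjusted p = 0.14). That of ESRP2 was -0.12 (adjusted p = 0.14).

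Of 4 proteins that have been reported to act with CEMIP, EGFR, a growth factor receptor, fell from 225 ± 5.21 to 183 ± 14.3 CPM (SD, n = 3 each; -0.29, adjusted p = 3.3e-04). CLTC, the clathrin heavy chain, rose by 0.18 on the log2 scale (adjusted p = 0.0092), and HSPA5, a chaperone of the endoplasmic reticulum, by 0.13 (adjusted p = 0.018). Both changes were small. CLTC did not pass without si-NC library 1 (adjusted p = 0.059), and HSPA5 did not pass without si-NC library 1 (0.076), 2 (0.099) or 3 (0.068) or with libraries scaled by their totals (0.056). The median of the list was 0.14. Over all tested genes, 13.2% were higher and 11.4% lower at an adjusted p under 0.05.

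Among matrix proteases and their inhibitors, 19 of 32 were tested and 8 rose, where 13.2% of all tested genes were higher, and the median log2 fold change was 0.16. MMP15, a membrane-type metalloproteinase, rose from 288 ± 6.79 to 377 ± 8.60 CPM (SD, n = 3 each; 0.39, adjusted p = 1.6e-06). ADAM19 (0.56, adjusted p = 1.5e-05) and ADAM15 (0.30, adjusted p = 1.5e-04), membrane proteases with a disintegrin domain, rose too. None of the called genes on these lists other than LGALS9 had a log2 fold change as large as that of CEMIP. Since CEMIP was chosen by that value, this is a description only.

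**Figure D5:**
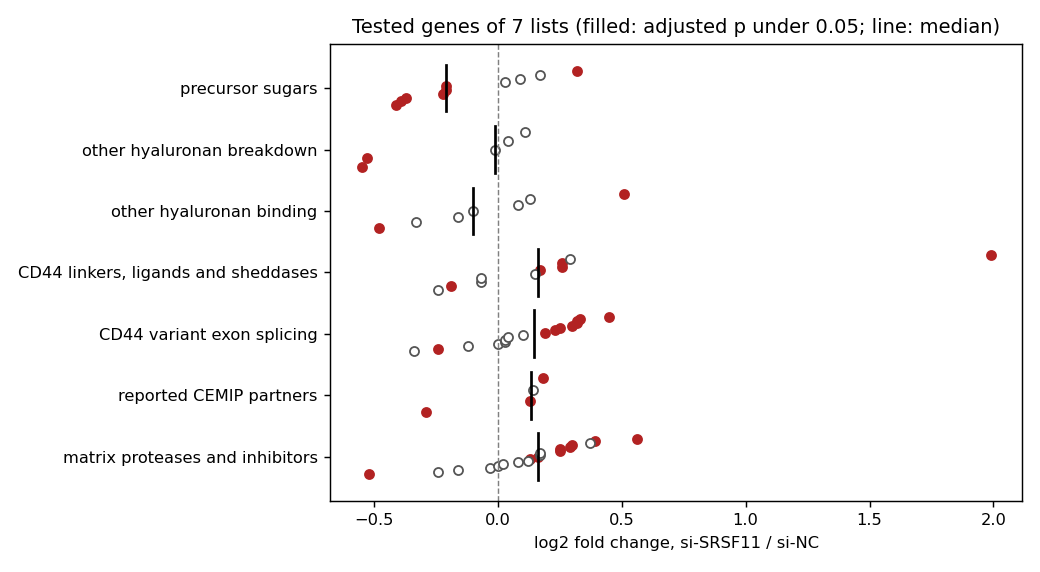
Log2 fold change (x axis, si-SRSF11 over si-NC) of the tested genes of 7 lists around hyaluronan, CD44 and CEMIP, 1 point a gene, filled where the adjusted p was under 0.05, with a line at each list's median. The precursor sugar list has its median at -0.21, the lists of CD44 linkers, splicing factors, CEMIP partners and proteases have theirs at 0.14 to 0.16, and LGALS9 is the point at 1.99.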

How the data were processed

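Polyadenylated RNA of 6 LoVo samples was sequenced, and the authors deposited raw counts per gene in 1 table, with no normalization. The build is hg38 per the submitters' processing notes. The aligner, the counting program and whether strand was used are not given in the sources used here. Samples were grouped by the deposited labels. A picture in the study assigns the library names to conditions the other way round, and the labels were followed here.

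After a filter that kept genes reaching 10 counts in 3 or more libraries, counts were scaled by TMM and tested with edgeR (version 4.0.16, R version 4.3.3), glmQLFit and glmQLFTest on condition alone, with Benjamini-Hochberg adjustment over all 15801 tested genes. Standard errors and 95% intervals came from the quasi-likelihood F statistic. CPM used TMM-scaled totals, and RPKM the table's gene lengths. Exact permutation tests used scipy (version 1.17.1, Python version 3.11.15). Alternatives were DESeq2 (version 1.42.0), other scalings and filters, a fit on protein-coding genes alone, a replicate block, and fits that each left out 1 library. On simulated counts, 158 of 196 changed genes were called (80.6%), beside 7 of 15322 unchanged ones. The simulation gave every gene the same dispersion and planted changes of a few fixed sizes, larger than many of those called here. Its shares therefore check the code and do not measure the power or the false calls in the real libraries. Totals per library set the counting error, and intervals for 0 counts cover that error alone.

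The members and lists were chosen with earlier results of these data known. Named genes are the 8 members, SRSF11, up to 4 called genes of each list with the smallest adjusted p, the 3 protein-coding genes most like CEMIP and like CD44, their 2 nearest protein-coding genes on each side, and genes sharing exon bases with a member. Other names are markers or are said to fall outside this rule. On each of 2 lists, 1 gene is not reported here. Splicing events were not analysed here, since gene counts hold no junctions.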

Additional observations from a re-analysis of the deposited data

How the results depend on the processing

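HYAL1, HYAL2 and CD44 kept their direction and their side of the threshold under every alternative run. CEMIP, given without a test, stayed higher in si-SRSF11 under each. With 1 library left out at a time, the log2 fold change ran from 0.85 to 0.94 for CEMIP, 0.43 to 0.58 for HYAL1, 0.02 to 0.16 for HYAL2, -0.03 to 0.13 for HYAL3, 0.54 to 0.86 for CD44, -0.01 to 0.63 for HAS1 and -0.21 to 0.20 for HAS3. In these fits a condition left with fewer libraries shares the spread of both. The sign turned for HAS3 (-0.01 with library totals alone, -0.21 without si-NC library 3, -0.13 without si-SRSF11 library 1, -0.01 without si-SRSF11 library 2), for HYAL3 (-0.01 without si-NC library 2, -0.03 without si-SRSF11 library 1) and for HAS1 (-0.01 without si-NC library 3). None of these values passed the test, and the cause was not tested. HAS1 fell under the filter at 20 counts and without si-NC library 2, si-SRSF11 library 1 or si-SRSF11 library 3, and DESeq2 gave it no adjusted p.

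The genes past an absolute log2 fold change of 1 numbered 173, and 92 with DESeq2, 112 at a filter of 20 counts and 96 over protein-coding genes only, where fewer genes are tested. Leaving out each library gave 139 to 186 of them, 1473 to 1981 genes called higher, 1268 to 1890 called lower, 18 to 25 list genes higher and 11 to 13 lower. Of 37 called list genes, 27 kept their call in every alternative. Library totals alone moved the median of all tested genes to -0.03.

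With the replicate number as a block, HYAL1 stayed at 0.50 (adjusted p = 0.0012), CD44 at 0.70 (adjusted p = 0.071), HAS1 at 0.37 (0.65), HAS3 at 0.03 (0.95), HYAL2 at 0.10 (0.17), HYAL3 at 0.04 (0.82) and CEMIP at 0.90, with 2147 genes higher and 1889 lower. Deviations of same-numbered libraries correlated by 0.0151, 0.0362 and 0.0403, and each library correlated best with its own number. The study speaks of pairs of RNA samples, and the labels do not say which libraries form a pair. Since no correlation was over 0.1, the main fit did not take the numbers as pairs, and the block fit above does. Low counts limit HAS1, HAS2, HAS3 and CD44.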
